A study of Mus musculus with 18 samples.

Results

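Respiratory chain subunits come from 2 genomes, and both sets of mRNAs were followed here through gastruloid formation with and without induction of Rnaseh1. The 46 genes are the 13 protein-coding genes of mouse mitochondrial DNA and 33 nuclear genes chosen by name, out of 55401 gene IDs in each deposited table. Of the nuclear genes, 15 encode subunits of complex I, 4 of complex II, 6 of complex III, 6 of complex IV and 2 of complex V. The rule that names them uses no measured value, but the set was proposed with earlier results of these data known. All 18 libraries were made from poly(A) RNA of RHKI, a line derived from E14Tg2a mouse embryonic stem cells that carries an HA-Rnaseh1 knock-in. Cells were taken at day 0 (0 hours), and gastruloids, which are stem cell aggregates that elongate and form derivatives of the germ layers, at day 3 (72 hours) and day 5 (120 hours). At each day 3 control libraries were compared with 3 libraries from cells given doxycycline (Dox) at 500 ng/ml for 48 hours before differentiation. Whether Dox was kept on afterwards is not given in the labels. Every group carries the knock-in and none received Dox without it, so Dox itself and the induced gene cannot be told apart.

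Complexes I to IV pass electrons from NADH and succinate to oxygen and, except for complex II, pump protons across the inner mitochondrial membrane. Complex V, the ATP synthase, uses the proton gradient to make ATP. The mitochondrial genes encode core membrane subunits of complexes I, III, IV and V and are transcribed as long RNAs from both strands of the mitochondrial genome, while complex II is made entirely from nuclear genes. RNase H1, the product of Rnaseh1, cuts the RNA strand of RNA:DNA hybrids. It is found in the nucleus and in mitochondria, where it is needed for replication of mitochondrial DNA.

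Rnaseh1 (ENSMUSG00000020630.9, chr12:28649602-28659589, plus strand, GRCm38) was measured first, as a check of the labels. At day 0 it was at 25.8, 30.3 and 28.7 CPM (counts relative to library size, scaled with TMM factors) in the controls and at 172, 137 and 149 CPM with Dox. At day 3 the controls were at 22.2, 24.0 and 24.1 CPM and the Dox libraries at 67.9, 70.2 and 66.1 CPM. At day 5 the controls were at 19.3, 20.1 and 19.7 CPM and the Dox libraries at 53.7, 57.4 and 60.4 CPM. Each Dox library lay above every control of its day. The log2 fold change at days 0, 3 and 5 was 2.43 ± 0.08 (SE), 1.53 ± 0.08 and 1.54 ± 0.08 (edgeR adjusted p = 4.1e-13, 9.9e-10 and 1.3e-09). The endogenous and the tagged transcripts share 1 row in the tables.

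Total counts ran from 25748897 to 38128366 per library. As a check of the cells, 10 naive stem cell markers summed to 5560 to 5720 CPM over the day 0 libraries and 265 to 285 CPM at day 5, and 9 neural markers summed to 132 to 167 and 1300 to 1450 CPM. In such bulk RNA a smaller number of cells of a type and less RNA per cell cannot be told apart. Dox replicate 2 of day 0 stood apart, with 4.761% of its counts on a ribosomal RNA gene (0.144 to 0.483% in the other 17 libraries) and 894 CPM of mt-Rnr1, the small mitochondrial ribosomal RNA (90.6 to 179 CPM elsewhere).

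Several mitochondrial mRNAs have near-identical copies in the nuclear genome, and this governs how their values can be read. An insertion of mitochondrial DNA on chromosome 1 is annotated as a run of unprocessed pseudogenes (GRCm38, GENCODE M21). Gm28661 matches mt-Co2 at 681 of 681 bases, Gm10925 matches mt-Atp6 at 678 of 678 and Gm28437 matches mt-Co3 at 783 of 783. Gm28439 matches the first 876 bases of mt-Nd4 without a difference, and Gm29216 matches the last 492 bases of mt-Co1 at 486. Gm10222 matches mt-Nd4l at 294 of 294. For mt-Nd3 the copy differs by 1 substitution, T3C, with positions counted from 1 at the 5′ end of the mitochondrial transcript. The mt-Nd3 transcript (chrM:9459-9806, plus strand) and Gm28438 (chr1:24612775-24613119, minus strand) are shown over bases 1 to 240 because the day on which mt-Nd3 was called with Dox depends on which of the loci its reads were counted on. Capitals mark the base that differs:
mt-Nd3: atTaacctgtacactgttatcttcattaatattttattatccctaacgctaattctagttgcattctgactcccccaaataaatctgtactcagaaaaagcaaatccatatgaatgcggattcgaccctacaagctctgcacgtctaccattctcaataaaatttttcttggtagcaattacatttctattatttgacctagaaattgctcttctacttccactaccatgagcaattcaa
Gm28438: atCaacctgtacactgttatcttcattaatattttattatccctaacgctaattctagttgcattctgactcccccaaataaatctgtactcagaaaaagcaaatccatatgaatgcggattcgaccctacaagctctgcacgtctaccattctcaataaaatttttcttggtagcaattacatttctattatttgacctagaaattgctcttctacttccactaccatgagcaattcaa
The ends of mt-Co2 (chrM:7013-7696, plus strand) and Gm28661 (chr1:24614885-24615565, minus strand) show the other extreme, where only the 3 capital bases at the end of the mitochondrial transcript separate the pair:
mt-Co2: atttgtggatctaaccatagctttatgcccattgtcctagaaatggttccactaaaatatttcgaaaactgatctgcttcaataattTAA
Gm28661: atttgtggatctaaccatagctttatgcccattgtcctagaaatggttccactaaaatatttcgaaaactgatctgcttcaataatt

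The deposited counts were split between these pairs in very unequal ways. Of the counts of mt-Co2 and Gm28661 together, 96.5 to 98.7% were on the pseudogene over the 18 libraries. For mt-Atp6 the pseudogene share was 95.9 to 98.1% and for mt-Co3 79.4 to 93.3%. It was 24.8 to 56.0% for mt-Nd3, 3.39 to 9.53% for mt-Co1 and 0 to 12.1% for mt-Nd4l, while mt-Nd4 lost at most 0.0162%. Counted over stretches of 75 bases, 97.8% of the mt-Nd3 transcript, 98.7% of mt-Nd4l, 99.5% of mt-Co2 and mt-Atp6 and 99.9% of mt-Co3 also occur in another annotated gene, against 61.5% of mt-Nd4, 39.8% of mt-Co1, 5.7% of mt-Nd2 and 1.7% of mt-Nd5. No such stretch of mt-Nd1, mt-Cytb, mt-Nd6 or mt-Atp8 is shared. Among nuclear members the highest shares were those of Uqcrb with 29.1%, Ndufs3 with 27.1%, Cox7c with 25.0%, Ndufb9 with 20.3% and Cox5b with 17.2%, so their values carry the same reservation. For the mitochondrial genes the results below are as deposited unless stated, and many are also given with the counts of the copy added to the gene. Adding the copies was chosen after the data had been seen.

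**Figure D1:**
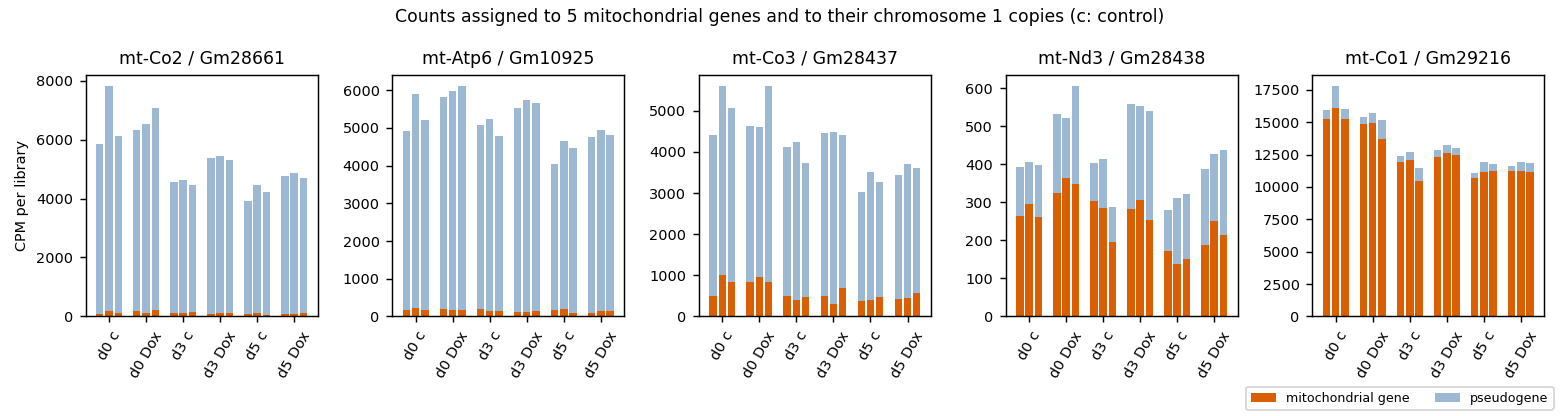
CPM in each of the 18 libraries for 5 pairs of a mitochondrial gene (orange) and its chromosome 1 pseudogene (blue), stacked, with 3 bars per group (d: day, c: control). Nearly all counts of the mt-Co2 and mt-Atp6 pairs sit on the pseudogene, at least 24.8% of those of mt-Nd3, and at most 9.53% of those of mt-Co1.

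Mitochondrial mRNAs were by far the more abundant set. On the TPM scale, which corrects for transcript length, and with copies added, the day 0 control means ran from 24007 TPM for mt-Atp8 and 18176 TPM for mt-Co1 down to 1500 TPM for mt-Nd5 and 75.5 TPM for mt-Nd6. The value of mt-Atp8 rests on an effective length of only 44.7 to 53 bases in the deposited tables, and 43 of its bases overlap mt-Atp6 on the same strand. mt-Nd6, a complex I subunit, is the 1 protein gene on the minus strand, and its mRNA is known to carry little or no poly(A) tail. Among nuclear members Atp5b, the catalytic beta subunit of ATP synthase, had the highest mean at day 0, 2610 TPM. Cox4i1 of complex IV followed with 844 TPM and Atp5a1, the alpha subunit of ATP synthase, with 792 TPM. The lowest were Ndufs1, the largest subunit of complex I, with 74.0 TPM and the accessory subunit Ndufb3 with 64.1 TPM. The means of mt-Nd5 and mt-Nd6 fell within the range of the nuclear members, and those of the other 11 mitochondrial mRNAs lay above it.

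The 13 mitochondrial mRNAs held 3.01 ± 0.071% (SD, n = 3) of all counts in day 0 controls, 3.05 ± 0.18% at day 3 and 2.74 ± 0.077% at day 5. With Dox the shares were 3.06 ± 0.1%, 3.38 ± 0.032% and 3.03 ± 0.022%. With copies added, the control shares were 4.59 ± 0.25, 4.46 ± 0.22 and 3.99 ± 0.16%, and the Dox shares 4.68 ± 0.12, 4.99 ± 0.047 and 4.44 ± 0.053%. The control and Dox libraries did not overlap at days 3 and 5 on either count and overlapped at day 0. As deposited, control replicate 3 of day 3 was at 2.84%, below the other controls of that day at 3.15 and 3.16%. The 33 nuclear members held 0.744 ± 0.036% of counts in day 0 controls, 0.695 ± 0.0075% at day 3 and 0.537 ± 0.02% at day 5, and 0.743 ± 0.045, 0.705 ± 0.0052 and 0.521 ± 0.014% with Dox.

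Dox was compared with control day by day, to see whether the mitochondrial and nuclear sets differed alike between Dox and control libraries. A gene was called where the adjusted p of edgeR's quasi-likelihood test, corrected over 17795 genes, was under 0.05, and all 46 members passed the filter on low counts. At day 5, 3 mitochondrial mRNAs rose and none fell, and no nuclear member was called. Over all genes tested 4.74% were called at day 5, 2.39% as higher. The called genes were mt-Cytb, mt-Nd2 and mt-Nd3.

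mt-Cytb (ENSMUSG00000064370.1, chrM:14145-15288, plus strand) encodes cytochrome b, the only complex III subunit made in mitochondria, and none of its 75-base stretches is shared with another gene. At day 0 its controls were at 3466, 4180 and 3458 CPM and its Dox libraries at 4416, 4687 and 4244 CPM. At day 3 the controls held 3819, 4091 and 3812 CPM and the Dox libraries 4811, 4909 and 4870 CPM. At day 5 the controls held 3374, 3742 and 3711 CPM and the Dox libraries 4422, 4579 and 4419 CPM. All 9 Dox libraries thus lay above every control of their day. The log2 fold change at days 0, 3 and 5 was 0.27 ± 0.06 (SE), 0.32 ± 0.06 and 0.31 ± 0.06, or 1.20-, 1.24- and 1.24-fold. By edgeR the call was made at day 5 (adjusted p = 0.0067) and missed at day 0 (adjusted p = 0.055) and day 3 (adjusted p = 0.39). With the replicate number as a block, edgeR called mt-Cytb at day 0 (adjusted p = 0.009) and day 3 (adjusted p = 0.029) too. The day 0 call was also made without control replicate 2 or Dox replicate 3 of day 0, and the day 3 call without control replicate 2 of day 0, a library outside that comparison that bears on the shared spread and on which genes pass the filter (adjusted p = 0.0035, 0.03 and 0.012 by edgeR). Over 29 alternative settings the adjusted p ran from 0.0017 to 0.81 at day 0 and from 4.8e-07 to 1 at day 3. Without the day 0 Dox library that stood apart, the day 0 log2 fold change was 0.23, with an adjusted p of 0.19 by edgeR.

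mt-Nd2 (chrM:3914-4951, plus strand), a core membrane subunit of complex I, was likewise called by edgeR at day 5 alone. Its controls were at 1734, 1817 and 1937 CPM at day 0, 1970, 2101 and 1943 CPM at day 3, and 1452, 1517 and 1622 CPM at day 5. Its Dox libraries were at 1982, 1995 and 2006 CPM, 2351, 2386 and 2367 CPM, and 1858, 1916 and 1886 CPM. The groups did not overlap on any day. The log2 fold change at days 0, 3 and 5 was 0.12 ± 0.05, 0.24 ± 0.05 and 0.30 ± 0.05, and it passed the test at day 5 (edgeR adjusted p = 0.00082, against 0.28 and 0.39 at the earlier days). The day 5 calls of mt-Cytb and mt-Nd2 were kept in each of the 29 settings.

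mt-Nd3 encodes a small core subunit of complex I. As deposited, the day 5 controls were at 172, 137 and 151 CPM and the Dox libraries at 189, 252 and 214 CPM, a log2 fold change of 0.51 ± 0.13 (edgeR adjusted p = 0.032). The Dox libraries were the higher ones without overlap, but this call was lost when any 1 of 4 day 5 libraries was left out (replicate 2 or 3 of either group, 0.39 to 0.53, edgeR adjusted p = 0.095 to 0.19). With Gm28438 added, the pair was at 279, 311 and 323 CPM in controls and 387, 426 and 439 CPM with Dox, a log2 fold change of 0.46 ± 0.10 (edgeR adjusted p = 0.010).

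The pair also stood apart at the earlier days. At day 0 it was at 391, 406 and 397 CPM in controls and 532, 523 and 606 CPM with Dox, and the log2 fold change of 0.48 ± 0.10 passed the test (edgeR adjusted p = 0.026), while mt-Nd3 alone gave 0.34 ± 0.13 (edgeR adjusted p = 0.29). At day 3 it was at 403, 415 and 288 CPM in controls and 560, 554 and 541 CPM with Dox, a log2 fold change of 0.58 ± 0.10 (edgeR adjusted p = 0.092). The groups did not overlap at either day, and control replicate 3 was the lowest of the day 3 libraries. The deposited values put most of the day 3 difference on the copy: Gm28438 alone rose by 1.32 ± 0.18 on the log2 scale (edgeR adjusted p = 0.0048), while mt-Nd3 alone gave 0.11 ± 0.13. Which of the loci the reads came from was not tested, and Gm28438 and mt-Nd3 cannot be told apart over most of their length.

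The remaining mitochondrial genes were not called as deposited at any day by edgeR over all 18 libraries with the filter on low counts. At day 5 mt-Nd1 gave a log2 fold change of 0.15 ± 0.05 without overlap (edgeR adjusted p = 0.098, DESeq2 adjusted p = 0.023), with 2692, 2867 and 2853 CPM in controls and 3023, 3202 and 3117 CPM with Dox. mt-Atp8, an ATP synthase subunit, was at 721, 703 and 799 CPM in controls and 873, 833 and 827 CPM with Dox, again without overlap, and gave 0.19 ± 0.09. mt-Nd4, a further complex I subunit, gave 0.13 ± 0.06 with overlapping groups. mt-Co1, the catalytic subunit of complex IV, gave 0.02 ± 0.05 at day 5, after -0.10 ± 0.05 at day 0 and 0.12 ± 0.05 at day 3. Its Dox libraries lay below its controls without overlap at day 0, above them without overlap at day 3, and overlapped them at day 5. mt-Nd5 gave -0.03 ± 0.08, -0.04 ± 0.08 and 0.04 ± 0.08 at days 0, 3 and 5, with overlapping groups each time. For mt-Co2 and mt-Atp6, where at least 95.9% of each pair's counts were on the copy, adding the copies turned the sign at day 3: mt-Co2 moved from -0.36 ± 0.29 to 0.24 ± 0.08 and mt-Atp6 from -0.44 ± 0.20 to 0.16 ± 0.06. The sign of mt-Atp6 turned at the other days too, from -0.12 ± 0.20 to 0.16 ± 0.06 at day 0 and from -0.33 ± 0.20 to 0.14 ± 0.06 at day 5. With no filter on low counts, edgeR called the deposited mt-Atp6 lower at day 3 (adjusted p = 0.0045) and day 5 (adjusted p = 0.012). That setting also called the deposited mt-Co2 higher at day 0 (0.45, edgeR adjusted p = 0.01). With its copy added and the filter kept, mt-Co2 gave 0.01 ± 0.08 at day 0. With copies added, mt-Co3 gave -0.02 ± 0.08, 0.14 ± 0.08 and 0.13 ± 0.08 at days 0, 3 and 5. mt-Nd4l gave 0.12 ± 0.1, 0.21 ± 0.09 and 0.12 ± 0.1, and neither gene was called by edgeR. The summed mt-Co2 pair was at 4545, 4637 and 4472 CPM in day 3 controls and 5362, 5442 and 5312 CPM with Dox.

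**Figure D2:**
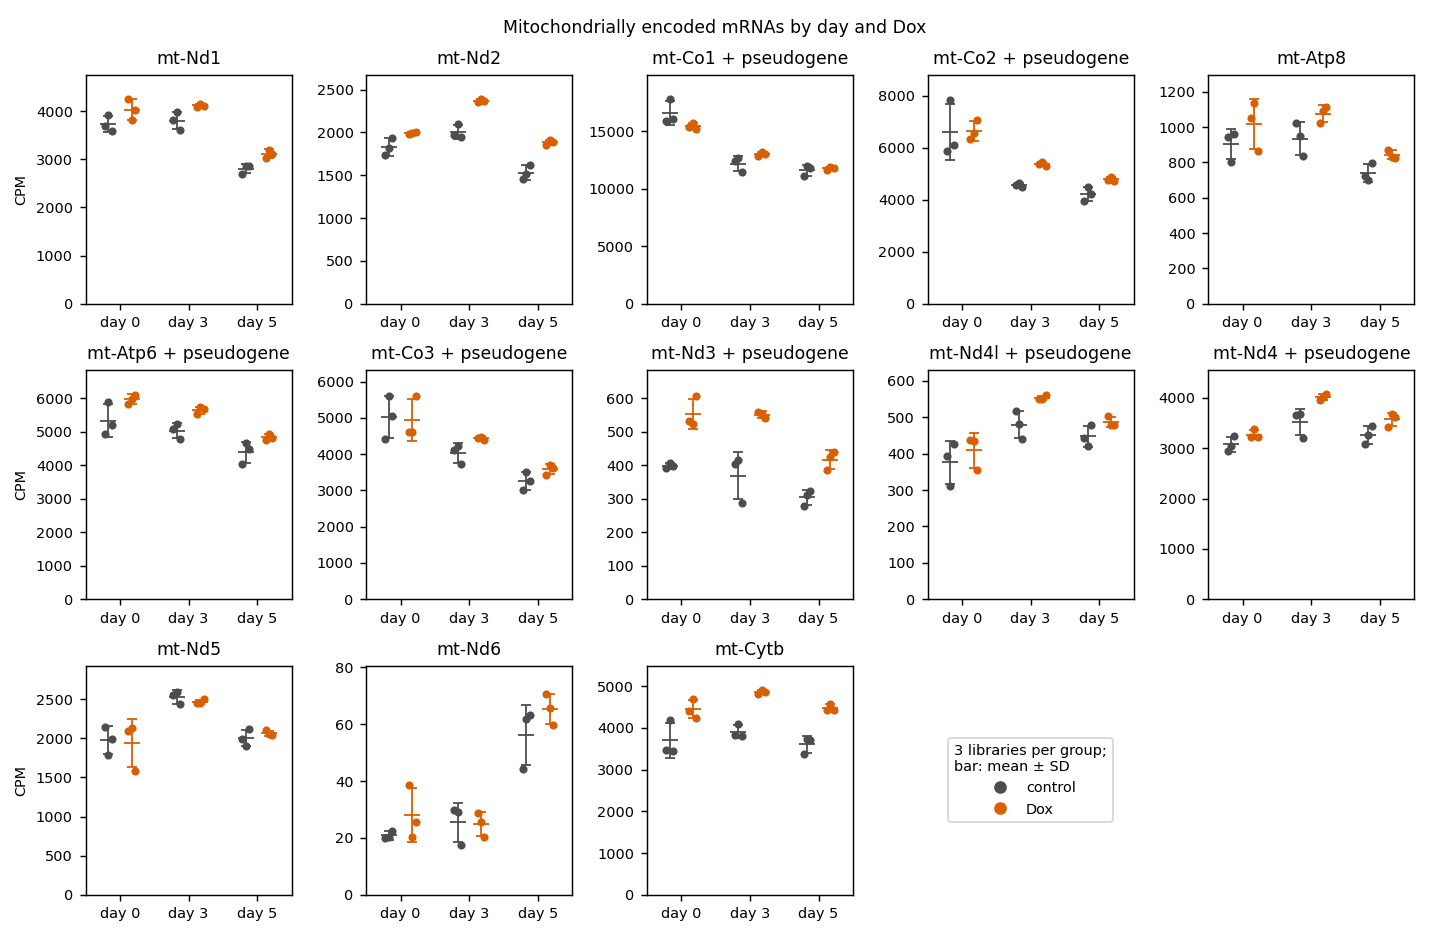
CPM of the 13 mitochondrial mRNAs by day, one point per library with mean ± SD (n = 3), controls in grey and Dox in orange, with the counts of the nuclear copy added where the panel says so. Dox libraries of mt-Cytb and mt-Nd2 lie above every control of the same day on all 3 days, and those of mt-Nd5 overlap the controls.

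Counted over the 13 mitochondrial genes as deposited, 10, 9 and 12 had a log2 fold change above 0 at days 0, 3 and 5 in turn, with medians of 0.12, 0.11 and 0.15, against a median of 0.0 over all genes at each day. At day 0 edgeR called none of the 13, against 1.04% of all genes, and DESeq2 and limma-voom each called mt-Cytb alone. The unadjusted edgeR p was under 0.05 for 4 of them, against 2197 of the 17795 genes tested. At day 3 edgeR called none, against 0.0169% of all genes, limma-voom none, and DESeq2 both mt-Nd2 and mt-Cytb. The unadjusted edgeR p at day 3 was under 0.05 for 7 of the 13, against 432 of the 17795 genes tested. These tests share 1 estimate of spread over all days, while replicates differed more at day 0 (median chi-square per gene 2.691 to 5.866 between pairs of one group) than at day 3 (0.7604 to 2.032) or day 5 (0.8396 to 2.586). Fitted on the 6 libraries of the day alone, edgeR called none at day 0, mt-Nd2 (adjusted p = 0.0078) and mt-Cytb (adjusted p = 0.00027) at day 3, and 5 of the 13 at day 5, adding mt-Nd1 and mt-Atp8. In those fits 0.0197, 0.0761 and 10.6% of all genes were called at days 0, 3 and 5. The shares of all genes were 3.51, 0.039 and 7.76% by DESeq2, 1.15, 0.0169 and 6.33% by limma-voom, and 1.76, 0.0225 and 5.98% by edgeR when replicate numbers entered the fit as a block. With pseudogene counts added to all libraries, edgeR called 1 (mt-Nd3), 0 and 3 of the 13 at days 0, 3 and 5, against 1.02, 0.0112 and 4.76% of all genes. The Dox libraries lay above the controls without overlap for 3, 5 and 5 of the 13 genes at days 0, 3 and 5, and below them for 1, 1 and 0. Over all genes such separation was upward for 4.59, 5.66 and 13.8% and downward for 5.64, 5.46 and 12.3%. With copies added, 10 of the 13 were separated upward at day 3 and 8 at day 5, and the medians were 0.12, 0.19 and 0.15. The 13 mRNAs derive from shared precursor RNAs, so they are not 13 independent observations.

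No nuclear member passed the edgeR test with Dox. None of the 33 was called at day 0, 3 or 5 by edgeR or by limma-voom, and DESeq2 called Uqcrq alone, at day 5. An unadjusted edgeR p under 0.05 was reached by 0, 0 and 3 of them. Over the 17795 genes tested it was reached by 2197, 432 and 2916. The medians were 0.02, 0.02 and -0.07, and the extremes at day 5 were -0.24 for Uqcrq and 0.04 for Sdhc. At day 3, 28 of the 33 lay above 0 and at day 5 only 4, so the sign of these small values differed between the days. The Dox libraries lay above the controls without overlap for 0, 7 and 0 of the 33 at days 0, 3 and 5. They lay below them for 0, 0 and 3. Over all genes such separation was upward for 4.59, 5.66 and 13.8% and downward for 5.64, 5.46 and 12.3%. By complex the day 5 medians were -0.06 for I, -0.04 for II, -0.11 for III, -0.08 for IV and -0.05 for V. The highest nuclear mRNA, Atp5b, gave -0.01 ± 0.05, 0.0 ± 0.05 and -0.06 ± 0.05 at the 3 days, and Cox4i1 gave 0.03 ± 0.08, 0.05 ± 0.08 and -0.08 ± 0.08. Sdha, the flavoprotein of complex II, gave -0.05 ± 0.04, 0.04 ± 0.04 and -0.01 ± 0.04.

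Uqcrq (ENSMUSG00000044894.14, chr11:53427922-53430831, minus strand), an accessory subunit of complex III, was the nuclear member nearest to a call. At day 0 its controls were at 150, 165 and 144 CPM and its Dox libraries at 150, 173 and 182 CPM. At day 5 the controls were at 85.6, 97.3 and 93.6 CPM and the Dox libraries at 75.4, 78.4 and 80.0 CPM. The groups overlapped at day 0 and not at day 5, where the Dox libraries were the lower ones. The log2 fold change at days 0, 3 and 5 was 0.14 ± 0.07, 0.02 ± 0.07 and -0.24 ± 0.07 (edgeR adjusted p = 0.057 at day 5). With the replicate block edgeR called it lower at day 5 (adjusted p = 0.021), and over the 29 settings the adjusted p ran from 0.0013 to 0.24. Cyc1, the cytochrome c1 of the same complex, gave -0.13 ± 0.05 at day 5 without overlap (edgeR adjusted p = 0.23).

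**Figure D3:**
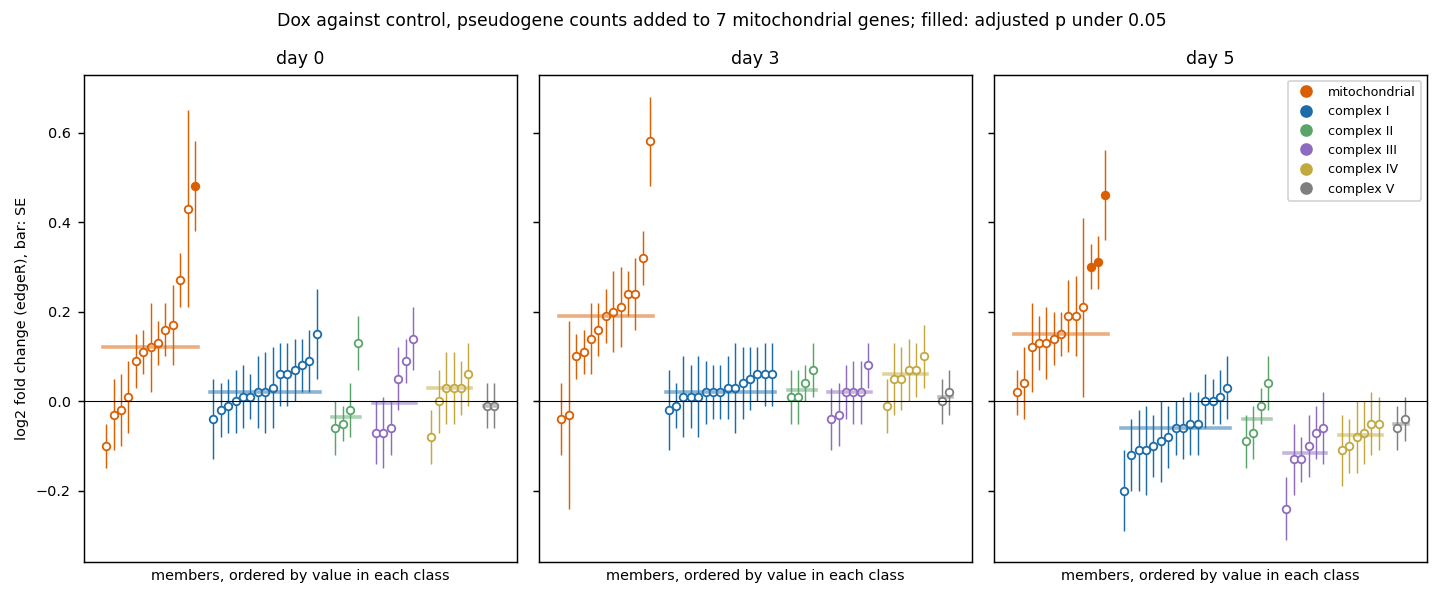
Log2 fold change of Dox against control for each member, with its SE, at days 0, 3 and 5 by edgeR, with the counts of nuclear copies added to 7 mitochondrial genes, ordered by value within each class, where filled points passed an adjusted p under 0.05 and lines give the class medians. The mitochondrial medians were 0.12, 0.19 and 0.15, and the points of nuclear members lie between -0.24 and 0.15.

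Other gene groups of the same pathways were read against the same shares of all genes called by edgeR, 1.04, 0.0169 and 4.74% at days 0, 3 and 5. Of 42 further nuclear subunits none was called at any day by edgeR, with medians of 0.03, 0.04 and -0.04. An unadjusted edgeR p under 0.05 was reached by 1, 0 and 1 of them, against 2197, 432 and 2916 of 17795 genes. Of 43 assembly factors only Uqcc2, which acts in complex III assembly, was called, at day 0 (0.35 ± 0.08, edgeR adjusted p = 0.042). Among 20 genes of mitochondrial DNA replication and transcription, Rnaseh1 apart, only Dna2, a nuclease, was called, at day 5 (-0.21 ± 0.06, edgeR adjusted p = 0.042). Among 20 genes of mitochondrial RNA processing and decay only Pnpt1, the polynucleotide phosphorylase, was called, at day 5. It was at 81.0, 81.6 and 78.7 CPM in controls and 70.3, 66.1 and 65.3 CPM with Dox, with no overlap, a log2 fold change of -0.26 ± 0.06 (edgeR adjusted p = 0.017). Among 9 tested regulators of mitochondrial biogenesis 2 fell at day 5, Myc by 1.26 ± 0.28 (edgeR adjusted p = 0.01) and the coactivator Pprc1 by 0.19 ± 0.05 (edgeR adjusted p = 0.048) on the log2 scale. Myc was at 31.0, 30.8 and 29.4 CPM in controls and 15.2, 12.1 and 10.7 CPM with Dox. Cell type markers moved as well. At day 3, 10 markers of the primitive streak summed to 692 to 937 CPM in controls and 538 to 670 CPM with Dox, without overlap, and none of the 9 tested was called by edgeR (all 9 had a log2 fold change below 0). Cardiac muscle markers, a low list, went the other way at day 3, with 17.7 to 19.8 CPM in controls and 22.6 to 25.1 CPM with Dox, none called. Endoderm markers were already lower at day 0, with 8.72 to 15.9 CPM in controls and 5.32 to 7.67 CPM with Dox, none called. At day 5, 4 of 9 neural markers fell and 1 rose, 3 of 8 somite markers fell and 1 rose, and 2 of 7 tested endoderm markers fell. Summed over the lists, neural markers were at 1410 to 1450 CPM in controls and 1300 to 1440 CPM with Dox, and somite markers at 135 to 156 and 108 to 129 CPM, with no marker of either list at 0 in either group. Their part in the values of the 46 members was not tested.

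The balance of the sets was described by the log2 ratio of summed mitochondrial to summed nuclear TPM, with no test. Day 0 controls were at 2.53, 2.33 and 2.53, those of day 3 at 2.81, 2.77 and 2.54, and those of day 5 at 2.83, 2.65 and 2.85. The Dox libraries were at 2.71, 2.68 and 2.29, then 2.84, 2.87 and 2.88, then 3.10, 2.98 and 2.99. The groups overlapped at day 0, where Dox replicate 3 was the lowest library of all, and were separate at days 3 and 5. The day 3 groups came as close as 2.81 and 2.84, and control replicate 3 lay below the other controls of that day, at 2.54. Means went from 2.46 ± 0.11 (SD, n = 3) through 2.71 ± 0.15 to 2.78 ± 0.11 in controls and from 2.56 ± 0.23 through 2.86 ± 0.019 to 3.02 ± 0.064 with Dox. With copies added the control means were 3.19 ± 0.027, 3.33 ± 0.1 and 3.43 ± 0.06, and the Dox means 3.27 ± 0.13, 3.5 ± 0.013 and 3.67 ± 0.047. Leaving out mt-Atp8, whose TPM rests on a very short effective length, gave 1.79, 2.01 and 2.12 in controls and 1.84, 2.12 and 2.33 with Dox. With the mean of log2(TPM + 1) values in place of sums, the day 3 groups overlapped and their means differed by 0.03. That mean took each gene as deposited and weighed all alike. It thus included mt-Co2 and mt-Atp6, where at least 95.9% of the counts were on the copy and the day 3 sign turned with copies added. The main ratio of sums also took each gene as deposited. The mean of log2 values was not computed with copies added, and whether the copies bear on the day 3 overlap was not tested.

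**Figure D4:**
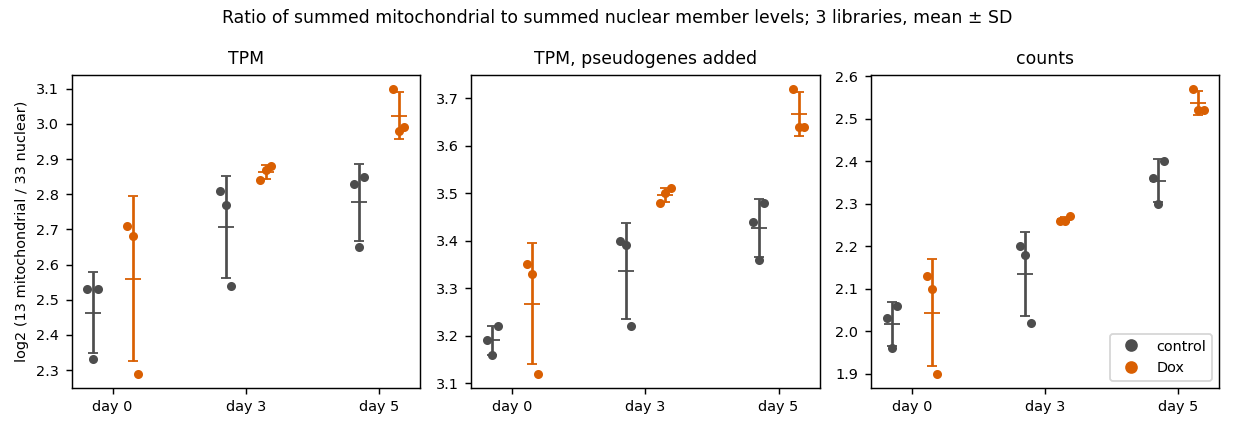
Log2 ratio of the summed level of 13 mitochondrial to 33 nuclear members in each library (points) with mean ± SD (n = 3), from TPM, from TPM with copies added and from counts. Dox libraries lie above all controls at days 3 and 5 on each scale and overlap them at day 0.

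Whether the Dox effect itself differed between days was tested with the difference of the log2 fold changes. For day 5 minus day 0, 1 of the 46 members was called by edgeR, against 3.28% of all genes. That gene was Uqcrq, with a difference of -0.38 ± 0.10 (edgeR adjusted p = 0.042). The call was lost in 15 of 29 settings, 14 of which leave out 1 library, with an adjusted p of 0.0063 to 0.14 over all of them. For day 5 minus day 3 none was called by edgeR, against 0.82% of all genes, nor by DESeq2 or limma-voom. An unadjusted edgeR p under 0.05 was reached by 3 members, against 1479 of 17795 genes. The differences for mt-Cytb were 0.04 ± 0.09 and -0.01 ± 0.09, and those for mt-Nd2 0.18 ± 0.07 (edgeR adjusted p = 0.20) and 0.06 ± 0.07. These data therefore do not show that the effect on either mRNA changed with the day.

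The controls alone give the course of the respiratory chain mRNAs during gastruloid formation. From day 0 to day 3, 4 mitochondrial mRNAs rose and 2 fell, and 9 nuclear members rose and 12 fell. Over all genes 73.5% were called in this comparison, 37.2% as higher and 36.3% as lower, so the members' counts are no more than the background. Without control replicate 1 of day 0 the nuclear split was 5 higher and 13 lower, and without control replicate 2 of day 0 it was 14 and 10. With scaling to library size alone, which moves the median of all genes by 0.148, the nuclear split was 17 higher and 8 lower, so small changes here depend on the scaling. Both control steps share the day 3 libraries.

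The 4 mitochondrial mRNAs that rose by day 3 encode complex I subunits, and the 2 that fell encode complex IV subunits. mt-Nd5 was at 2143, 1789 and 1992 CPM at day 0 and 2559, 2593 and 2434 CPM at day 3, without overlap, a log2 fold change of 0.36 ± 0.08 (edgeR adjusted p = 0.0009). mt-Nd4l rose by 0.36 ± 0.10, mt-Nd4 by 0.19 ± 0.06 and mt-Nd2 by 0.13 ± 0.05. The call of mt-Nd2 was lost without control replicate 1 of day 0 or control replicate 2 of day 3 (0.10 each, edgeR adjusted p = 0.11 and 0.10). mt-Co1 was at 15259, 16101 and 15248 CPM at day 0 and 11957, 12086 and 10461 CPM at day 3, a fall of 0.43 ± 0.05 on the log2 scale without overlap (edgeR adjusted p = 3.2e-07). mt-Co3 fell by 0.78 ± 0.24 as deposited and by 0.32 ± 0.08 with its copy added. Without control replicate 2 of day 0 the deposited mt-Co3 gave -0.54 (edgeR adjusted p = 0.056). mt-Co2 was called only with its copy added, as a fall of 0.54 ± 0.08 (edgeR adjusted p = 5.3e-06).

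Of the nuclear genes of complex IV, none rose and 4 of 6 fell by day 3. Cox5a was at 268, 307 and 296 CPM at day 0 and 128, 132 and 128 CPM at day 3, every day 3 library below every day 0 library, a fall of 1.16 ± 0.07 on the log2 scale or 2.24-fold (edgeR adjusted p = 4e-11). Cox7c fell by 0.64 ± 0.06, Cox4i1 by 0.44 ± 0.08 and Cox6c by 0.23 ± 0.06. Ndufa4, now assigned to complex IV, and Cox5b were not called, with 0.01 ± 0.07 and 0.08 ± 0.08. Members of the complex thus ranged from no called change to a 2.24-fold fall.

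Both nuclear members of complex V, the ATP synthase, fell by day 3. Atp5b was at 2451, 2685 and 2414 CPM at day 0 and 1653, 1710 and 1735 CPM at day 3, a fall of 0.57 ± 0.05 without overlap (edgeR adjusted p = 1.7e-09). Atp5a1 fell by 0.13 ± 0.05, but with scaling to library size alone its value turned to 0.02, and the call was lost without control replicate 2 of day 0 (-0.07) or control replicate 1 or 3 of day 3 (-0.11 and -0.12). Over the 29 settings its edgeR, DESeq2 or limma-voom adjusted p reached 0.65.

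Complexes I and III each held members that moved in opposite directions. In complex I, 5 of 15 rose and 3 fell. The rises of Ndufa2 and Ndufb3 were not called without control replicate 1 of day 0 (0.22 and 0.16, edgeR adjusted p = 0.061 and 0.096), and Ndufb3 and Ndufb5 each lost their call in 13 of the 29 settings. Ndufs3, a core subunit of the arm that takes electrons from NADH, was at 61.4, 73.0 and 64.0 CPM at day 0 and 86.2, 83.4 and 89.5 CPM at day 3 (0.38 ± 0.07, edgeR adjusted p = 4.8e-05). Ndufs8, an iron-sulfur subunit of the same arm, went from 69.5, 85.7 and 70.7 CPM to 45.5, 47.3 and 48.1 CPM (-0.68 ± 0.09, edgeR adjusted p = 1.8e-06). Neither gene's groups overlapped, so subunits of the same arm changed in opposite directions. In complex III the core proteins Uqcrc1 and Uqcrc2 likewise changed in opposite directions, with -0.29 ± 0.07 and 0.26 ± 0.06, and the small subunits Uqcrb and Uqcrq fell by 0.58 ± 0.07 and 0.40 ± 0.07.

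Complex II was the 1 complex without a fall at this step. Sdhd, a membrane anchor, was at 108, 122 and 108 CPM at day 0 and 138, 138 and 138 CPM at day 3 (0.29 ± 0.06, edgeR adjusted p = 0.00012), and Sdha went from 249, 269 and 261 to 282, 279 and 285 CPM (0.12 ± 0.04, edgeR adjusted p = 0.012). For both genes every day 3 library lay above every day 0 library, though the call of Sdha was lost without control replicate 1 of day 0 (0.09, edgeR adjusted p = 0.072). Sdhb and Sdhc were not called, with 0.04 ± 0.06 and 0.09 ± 0.06.

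From day 3 to day 5 most of the nuclear set fell. Of the 33 genes 23 fell and 1 rose, with a median of -0.27, against 64.8% of all genes called, 31.7% as higher and 33.1% as lower, and an all-gene median of -0.01. The falls took in 10 of 15 genes of complex I, 2 of 4 of complex II, 5 of 6 of complex III, 4 of 6 of complex IV and both of complex V. Under the 3 other scalings tried the count stayed at 23 lower and 1 higher.

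Atp5b was again among the largest, at 1653, 1710 and 1735 CPM at day 3 and 1059, 1141 and 1107 CPM at day 5, a fall of 0.62 ± 0.05 on the log2 scale or 1.54-fold (edgeR adjusted p = 6.5e-10). Atp5a1 went from 1079, 1129 and 1094 CPM to 720, 762 and 753 CPM, a fall of 0.56 ± 0.05 (edgeR adjusted p = 3.4e-09). Neither gene's groups overlapped, so both main subunits of the ATP synthase head were lower by a similar amount. Ndufa10 of complex I fell by 0.52 ± 0.06, Cyc1 of complex III by 0.50 ± 0.05 and Ndufs8 by 0.49 ± 0.09. In complex II, Sdhd fell by 0.42 ± 0.06 and Sdha by 0.37 ± 0.04 while Sdhc and Sdhb gave 0.09 ± 0.06 and -0.08 ± 0.06. In complex IV, Cox5b fell by 0.41 ± 0.08 and Ndufa4 by 0.31 ± 0.07, and Cox5a, already low at day 3, gave -0.05 ± 0.07. The exception was Ndufa1, a small accessory subunit needed for complex I assembly, at 24.5, 22.5 and 23.4 CPM at day 3 and 27.4, 36.3 and 31.6 CPM at day 5 (0.44 ± 0.10, edgeR adjusted p = 0.00072).

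**Figure D5:**
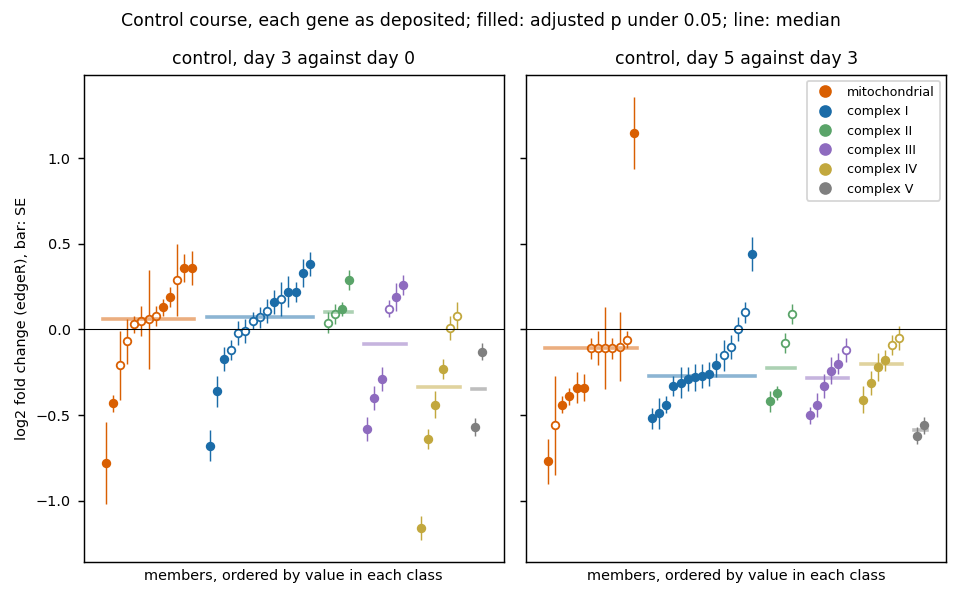
Log2 fold change with SE of each member in controls, day 3 against day 0 (left) and day 5 against day 3 (right), by edgeR on the deposited counts, ordered by value within each class, where filled points passed an adjusted p under 0.05 and lines are class medians. From day 3 to day 5 the nuclear median is -0.27 and mt-Nd6 stands alone at 1.15.

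The mitochondrial set leaned the same way at this step. Log2 fold changes lay below 0 for 12 of 13 mitochondrial genes, as deposited and with copies added. The nuclear count was 29 of 33. As deposited 5 of 13 were called lower and 1 higher, with a median of -0.11. With copies added 7 were called lower and 1 higher, with a median of -0.20, against 64.8% of all genes called. mt-Nd1 was at 3821, 3973 and 3617 CPM at day 3 and 2692, 2867 and 2853 CPM at day 5, a fall of 0.44 ± 0.05 on the log2 scale without overlap (edgeR adjusted p = 2.8e-07). mt-Nd2 fell by 0.39 ± 0.05, mt-Nd5 by 0.34 ± 0.08 and mt-Atp8 by 0.34 ± 0.09. mt-Nd3 fell by 0.77 ± 0.13 as deposited and by 0.28 ± 0.10 with its copy added. mt-Cytb gave -0.11 ± 0.06 and mt-Co1 -0.06 ± 0.05, neither called.

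mt-Nd6 went the other way. It was at 19.8, 20.3 and 22.5 CPM at day 0, 29.9, 29.0 and 17.6 CPM at day 3, and 44.1, 61.8 and 63.1 CPM at day 5. The day 5 controls lay above every earlier control, and the rise from day 3 was 1.15 ± 0.21 on the log2 scale or 2.22-fold (edgeR adjusted p = 7.8e-05). The Dox libraries of day 5 were at 70.5, 65.6 and 59.8 CPM and overlapped their controls (0.21 ± 0.20, edgeR adjusted p = 0.69). Since its neighbour mt-Nd5 lies on the opposite strand and shares 14 annotated bases with it, and the strand setting of the counting is not given in the sources used here, the part of reads from the other strand was not tested. The level also depends on how much of this mRNA was captured by poly(A) selection, which was not measured.

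Other groups of respiratory chain genes were measured over the same control steps, in which 73.5% and then 64.8% of all genes were called, 36.3% and 33.1% as lower. Of the 42 further subunits, 33 fell and none rose from day 3 to day 5 (median -0.37), with Atp5l of ATP synthase the largest fall, from 137, 140 and 146 CPM to 50.6, 57.2 and 52.6 CPM (-1.40 ± 0.08, edgeR adjusted p = 1.9e-11), followed by Ndufv3 at -0.93 ± 0.09 and Atp5o at -0.83 ± 0.07. From day 0 to day 3, 13 of them rose and 16 fell, and Cox6a1 fell by 0.92 ± 0.08. Of the 20 genes of mitochondrial RNA processing and decay 16 fell and 1 rose from day 3 to day 5, including Lrpprc, which stabilises mitochondrial mRNAs, from 217, 217 and 220 CPM to 113, 111 and 115 CPM (-0.95 ± 0.07, edgeR adjusted p = 3.2e-10). Fastkd2, which binds mitochondrial RNA, rose by 1.17 ± 0.09 from day 0 to day 3 (edgeR adjusted p = 6.3e-10). Among mitochondrial DNA factors 10 of 20 rose and 5 fell from day 0 to day 3, where Tfam, the packaging and transcription factor, went from 62.5, 67.4 and 61.4 to 109, 112 and 108 CPM (0.78 ± 0.05, edgeR adjusted p = 2e-10). Top1mt, the mitochondrial topoisomerase, rose by 1.22 ± 0.10 and then by 0.78 ± 0.10. Of the 43 assembly factors 8 rose and 17 fell from day 3 to day 5.

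Some subunits have forms that replace the common one in particular tissues. Of 9 such genes listed, 5 were tested. Cox7a1, the form typical of heart and muscle, was at 10.6, 12.9 and 13.6 CPM at day 0 and 2.12, 1.98 and 2.12 CPM at day 3, a fall of 2.58 ± 0.22 on the log2 scale (edgeR adjusted p = 3.7e-09). Cox6b2, known from testis, was at 109, 113 and 113 CPM at day 0, 70.5, 62.4 and 68.3 CPM at day 3 and 37.4, 40.8 and 39.2 CPM at day 5, with no overlap between days. It was also the 1 gene of this list called with Dox, at day 5, where Dox libraries were at 28.4, 26.2 and 27.9 CPM (-0.51 ± 0.09, edgeR adjusted p = 0.0024). Ndufa4l2 was at 2.1 CPM or less in every library.

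Promoters of nuclear members were examined for 3 motifs whose factors are known regulators of respiratory chain genes. RefSeq windows (GRCm38.p6, 250 bases before to 50 after a start) were matched for 22 of the 33 genes, as 23 windows. The consensus NRF1 motif was found on either strand in 5 of 23 windows (21.7%, against 4.6% of 32851 windows of all genes). The ETS motif CCGGAAG was found in 4 (17.4%, against 8.9%) and a YY1 motif in 1, that of Ndufa9 (4.3%, against 0.9%). The windows of all genes were not matched to those of the members for base content or expression. Counted by gene, the NRF1 motif was found in 4 of 22 (18.2%, against 5.2% of all genes), since the windows of Ndufa5 overlap and hold the same match. The NRF1 genes were Ndufa5, Sdha, Sdhd and Uqcrc1, and the first 3 of these rose from day 0 to day 3 while Uqcrc1 fell. The 250 bases before the start of Sdha (chr13:74350241-74350490, minus strand) and Sdhd (chr9:50603850-50604099, minus strand), the complex II genes called at both control steps, are shown with the motif matches in capitals:
Sdha: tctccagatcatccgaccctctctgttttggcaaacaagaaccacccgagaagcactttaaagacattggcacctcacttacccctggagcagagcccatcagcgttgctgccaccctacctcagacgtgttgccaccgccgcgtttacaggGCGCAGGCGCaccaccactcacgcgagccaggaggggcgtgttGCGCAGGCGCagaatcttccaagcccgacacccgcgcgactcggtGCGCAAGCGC
Sdhd: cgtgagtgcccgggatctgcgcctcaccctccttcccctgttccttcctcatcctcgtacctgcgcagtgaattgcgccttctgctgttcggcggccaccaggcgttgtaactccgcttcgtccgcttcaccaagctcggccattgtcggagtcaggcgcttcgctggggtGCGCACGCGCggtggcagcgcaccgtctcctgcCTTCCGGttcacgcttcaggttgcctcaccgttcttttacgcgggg
Sdha holds 3 matches to the NRF1 motif and Sdhd 1, together with 1 match to the ETS motif. A match is a run of letters and no evidence that a factor binds there. Of the 9 regulators tested, 3 rose and 4 fell from day 0 to day 3. Myc rose by 3.14 ± 0.31 on the log2 scale (edgeR adjusted p = 3.3e-08), from 6.78, 4.52 and 2.02 CPM to 32.6, 43.0 and 41.2 CPM. The coactivator Ppargc1b, at 4.40, 4.45 and 4.27 CPM at day 0 and 13.9, 14.6 and 15.3 CPM at day 3, rose by 1.74 ± 0.15 (edgeR adjusted p = 6.4e-09). Nrf1 and Gabpa, an ETS factor, are given for their motifs, a choice made after their values were seen: Nrf1 fell by 0.23 ± 0.05 (edgeR adjusted p = 0.0002) and Gabpa by 0.94 ± 0.08 (edgeR adjusted p = 6.8e-09).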

How the data were processed

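Poly(A) RNA of 18 libraries was sequenced from a stranded mRNA kit, per the labels' protocols. The build GRCm38, RSEM 1.3.3, STAR 2.7.10a, DESeq2 1.38.2 and Trimmomatic appear, with no role or order, in the submitters' processing notes. The annotation release and the strand setting are not given in the sources used here. The deposited tables hold expected counts, which RSEM estimates by sharing ambiguous reads among genes, and TPM made by the authors. Of the expected counts 6.54 to 7.49% per library were not whole, and they were rounded. IDs were matched to GENCODE M21 (55141 of 55401).

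edgeR 4.0.16 (R 4.3.3) fitted 1 mean per group over all 18 libraries with TMM scaling, filterByExpr (minimum count 10) and its quasi-likelihood test, with Benjamini-Hochberg adjustment over 17795 genes and a threshold of 0.05, and was tested on simulated data. The SE is the log2 fold change divided by the root of F. Residual degrees of freedom were 12. DESeq2 1.42.0, limma 3.58.1 (voom), other scalings and filters, a replicate block, fits on each contrast alone and leaving out each library were alternatives. Sums for the ratio used TPM, with a pseudocount of 1 only for the mean of log2 values.

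The members and lists were chosen with earlier results of these data known. The genes named are Rnaseh1, the members, and up to 3 called genes per other list, comparison and direction with the largest changes. Nothing in the labels says that libraries came from separate cultures, so the p-values may rest on technical spread. Each replicate number is also the batch named in the labels, and same-numbered control and Dox libraries deviated together at day 0 (r = 0.206 to 0.331). At day 3 r was 0.0103 to 0.0365 and at day 5 0.0224 to 0.0506. For differently numbered pairs r was -0.252 to 0.0553, -0.0427 to 0.0205 and -0.0565 to 0.0202 at days 0, 3 and 5. The ranges of same-numbered and differently numbered pairs overlapped at day 3 and nearly met at day 5. With 3 libraries against 3 an exact two-sided permutation test cannot go below p = 0.1, so none was run for the ratio.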

Additional observations from a re-analysis of the deposited data

Results flagged for a closer look

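The Dox effect on Uqcrq, a complex III subunit, was called by edgeR as different between day 0 and day 5. It was 0.14 ± 0.07 (SE) on the log2 scale at day 0 and -0.24 ± 0.07 at day 5, a difference of -0.38 ± 0.10 (edgeR adjusted p = 0.042, range 0.0063 to 0.14 over 29 settings). This was the 1 call among 46 members, against 3.28% of all genes, so the count is no more than the background. The call was lost in 15 of the 29 settings. The Dox mean was above the control mean at day 0, with overlapping libraries, and all 3 Dox libraries lay below all 3 controls at day 5. Without the day 0 Dox library with a high ribosomal RNA share the difference was -0.36 (edgeR adjusted p = 0.086). Without Dox replicate 3 of day 0, the day 0 library with the most Uqcrq, it was -0.32 (edgeR adjusted p = 0.07).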

How the results depend on the processing

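At day 0 the number of mitochondrial members called with Dox moved from 0 to 1 with DESeq2, RLE factors, library size alone, limma-voom, a filter of 1 CPM in 3 libraries, the replicate block, the contrast alone with the block and pseudogene counts added, and to 4 with no filter. At day 3 it moved from 0 to 1 with the replicate block, to 2 with DESeq2, the contrast alone and no filter, and to 4 (3 higher, 1 lower) with the contrast alone and the block. At day 5 it moved from 3 to 5 with the contrast alone, to 7 with the block added, to 4 with DESeq2 (mt-Nd1 added) and to 4 with no filter, where mt-Atp6 was called lower (-0.33, adjusted p = 0.012 by edgeR). The nuclear count at day 5 moved from 0 to 1 with DESeq2, no filter, the contrast alone and the replicate block, and to 4, all lower, with the contrast alone and the block. Leaving out 1 library gave 0 to 1 mitochondrial calls at day 0 and at day 3, 0 to 1 nuclear calls at day 5, and 0 to 2 calls for the day 5 minus day 0 difference, which also went from 1 to 0 with the contrast alone and with an adjusted p under 0.01. For day 5 minus day 3 the count moved from 0 to 2 with the contrast alone, with or without the block, and to 1 with no filter. Without Dox replicate 2 of day 0 the mitochondrial counts were 0 at day 0 and 3 at day 5. The cause of these shifts was not tested.

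With the replicate block the control steps gave 6 mitochondrial and 23 nuclear calls from day 0 to day 3 and 6 and 24 from day 3 to day 5. Beyond the calls of mt-Cytb and Uqcrq given with their results, the block added calls of Ndufb8 and Cyc1 from day 0 to day 3 and changed no other call of a member. The Dox difference in the log2 ratio at day 3 was 0.03 with the mean of log2 values, taken as deposited with no copies added. The control step from day 0 to day 3 was 0.11 from counts and 0.09 from mean log2 values. That from day 3 to day 5 was 0.22 from counts. The Dox difference in the mitochondrial share, in percentage points, was 0.45, 0.90 and 0.92 at days 0, 3 and 5 as a share of TPM, and 0.53 and 0.45 at days 3 and 5 with pseudogenes added. Over 322 single-gene results (46 members in 7 comparisons) and 29 settings, 2 results called under one of the settings compared had the opposite sign under the other, both from day 0 to day 3: Atp5a1, at 0.02 with library size alone, and mt-Co2, at -0.54 with pseudogene counts added. Signs of values called under neither setting were not counted. Of the other values 9167 kept their side of the threshold, 77 lost and 92 gained a call. Cox4i1 and Cox7c from day 3 to day 5 each lost their call without control replicate 1 of day 5 (-0.19 and -0.13). Among the Dox results of single days, deposited mt-Co2, mt-Co3, mt-Atp6 and mt-Nd6 were those with an SE of 0.20 or more.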
